A study of Mus musculus with 51 samples.

Results

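The genes described here are the nuclear genes that encode subunits of the oxidative phosphorylation machinery. They were taken by name, as every gene of the deposited count table whose symbol begins with Nduf followed by a, b, c, s or v and a digit, is Sdha, Sdhb, Sdhc or Sdhd, or begins with Uqcr, Cox4 to Cox8, or Atp5. This gave 84 of 24564 genes: 37 of complex I, 4 of complex II, 8 of complex III, 18 of complex IV and 17 of complex V. Genes for assembly factors, except Atp5sl and Cox7a2l, and the 13 mitochondrially encoded subunits are outside the name pattern. The mitochondrially encoded subunits were not analysed here. Complexes were assigned by name, so Atp5sl counts in complex V and Ndufa4 in complex I, although both are placed elsewhere by function.

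Oxidative phosphorylation makes ATP in the inner mitochondrial membrane. Complexes I and II pass electrons from NADH and succinate to ubiquinone, complex III passes them to cytochrome c, and complex IV (cytochrome c oxidase) passes them to oxygen. Complexes I, III and IV pump protons, and complex V (ATP synthase) uses the proton gradient to make ATP. Midbrain dopaminergic neurons are known for a high energy demand, and inhibitors of complex I are used to produce models of parkinsonism in rodents. Nuclear respiratory factor 1 (NRF1), ETS family factors such as GABPA, and YY1 are known regulators of many genes for these subunits.

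RNA was measured with Smart-seq2, a full-length method for small amounts of RNA, in neurons sorted by fluorescence from the midbrain of adult mice. The study asked what changes in dopaminergic and serotonergic neurons when Polycomb repressive complex 2 (PRC2), which methylates lysine 27 of histone H3, does not function. Midbrain dopaminergic (mDA) neurons came from the strain DatCreEed and serotonergic (5HT) neurons from the strain SertCreEed. In these strains Cre is named for the dopamine or the serotonin transporter gene, and Eed encodes a core subunit of PRC2. Each strain was labelled wt or PRC2 mutant and sampled at 4 and 8 months of age. At 4 months 9 wt and 10 mutant mDA libraries were made, and at 8 months 8 of each. Every 5HT group held 4 libraries. Each of the 51 libraries carried its own animal number. The labels do not say whether the wt animals carry Cre or a floxed allele.

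The mDA libraries fell into 3 sequencing sets at each age, and sex was uneven between the sets. At 4 months, set1 held 3 wt males and 4 mutant females, so that genotype and sex cannot be told apart inside it. Set2 held 2 females and 2 males of each genotype. Set3 held 2 wt females and 2 mutant males, the reverse of set1. Total counts per library ran from 1644460 to 12250492, and a floor of 3 counts stood for 0.245 to 1.82 CPM (counts scaled to a total of 1000000). The 84 genes together took 0.270% to 1.12% of a library's counts. Levels below are CPM of TMM-scaled library sizes. Tests are edgeR's quasi-likelihood test over all genes, in which a gene is called at p under 0.05 after Benjamini-Hochberg adjustment. Fold changes are log2 values with their standard error (SE).

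The sorted cells matched their labels at defining genes. Th, the rate-limiting enzyme of dopamine synthesis, was at 599 CPM or more in every mDA library and at 35.6 CPM or less in every 5HT library. Slc6a4, the serotonin transporter, was at 505 CPM or more in every 5HT library and at 11.1 CPM or less in every mDA library. Eed itself is counted over the whole gene, which cannot isolate a deleted part, so its level checks no genotype label. Eed was at 14.2 ± 6.40 CPM (SD, n = 9) in mDA wt and 23.8 ± 9.24 CPM (SD, n = 10) in mDA mutants at 4 months, and at 13.5 ± 3.17 and 22.4 ± 9.35 CPM (SD, n = 8 each) at 8 months. In 5HT neurons the means were 10.1 ± 3.02 and 24.7 ± 3.81 CPM at 4 months and 13.4 ± 2.20 and 17.5 ± 5.51 CPM at 8 months (SD, n = 4 each). None of the 4 differences passed the test (edgeR adjusted p = 0.114, 0.271, 0.554 and 1 in that order).

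The promoters of these genes differ in the motifs they hold, and 5 are shown: the 3 with the most matches, the complex V promoter with the most matches, and that of Atp5b, which recurs in the results. The 250 bases before the annotated start of transcription (RefSeq, GRCm38.p6) could be taken for 69 of the 84 genes. Both strands were searched for the NRF1 motif (GCGCA, any base, GCGC), the ETS motif CCGGAAG and the YY1 motif AANATGGCG. The NRF1 motif was in 12 of the 69 promoters (17.4%) and in 1044 of 27025 promoters of all genes (3.86%). The ETS motif was in 11 (15.9%), against 1906 (7.05%) of all promoters. The YY1 motif was in 1 (1.45%), against 302 (1.12%). At least 1 of the 3 was in 21 (30.4%), against 3016 (11.2%). Each sequence below is the strand of the gene, read toward its start, with motif matches in capitals. A match describes these letters only.
Ndufb4: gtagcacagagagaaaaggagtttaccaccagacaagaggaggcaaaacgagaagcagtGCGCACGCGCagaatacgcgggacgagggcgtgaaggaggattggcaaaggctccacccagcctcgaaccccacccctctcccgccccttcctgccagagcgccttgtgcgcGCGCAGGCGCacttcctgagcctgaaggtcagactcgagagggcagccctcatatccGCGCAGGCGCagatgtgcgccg
Sdha: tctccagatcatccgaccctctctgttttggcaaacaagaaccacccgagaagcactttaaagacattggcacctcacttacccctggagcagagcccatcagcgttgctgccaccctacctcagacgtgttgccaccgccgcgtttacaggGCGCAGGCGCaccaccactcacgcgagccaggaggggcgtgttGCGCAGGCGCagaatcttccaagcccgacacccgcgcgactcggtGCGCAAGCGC
Cox6a1: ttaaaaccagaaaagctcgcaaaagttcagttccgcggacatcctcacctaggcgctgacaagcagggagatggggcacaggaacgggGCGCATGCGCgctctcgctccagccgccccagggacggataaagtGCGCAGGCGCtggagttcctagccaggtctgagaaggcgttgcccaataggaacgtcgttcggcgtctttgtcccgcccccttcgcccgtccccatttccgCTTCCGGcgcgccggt
Atp5h: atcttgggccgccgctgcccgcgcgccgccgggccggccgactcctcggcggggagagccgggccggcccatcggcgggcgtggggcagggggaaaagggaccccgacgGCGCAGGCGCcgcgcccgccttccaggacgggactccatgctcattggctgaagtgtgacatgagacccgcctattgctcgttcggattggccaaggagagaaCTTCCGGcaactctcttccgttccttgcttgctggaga
Atp5b: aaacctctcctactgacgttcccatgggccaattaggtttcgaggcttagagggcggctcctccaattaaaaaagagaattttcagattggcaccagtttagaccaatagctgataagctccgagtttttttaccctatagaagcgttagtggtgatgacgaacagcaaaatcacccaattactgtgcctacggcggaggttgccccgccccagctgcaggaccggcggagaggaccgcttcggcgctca
Ndufb4 (complex I accessory subunit, chr16:37654369-37654618, minus strand) and Sdha (chr13:74350241-74350490, minus strand) each hold 3 NRF1 matches in this window. Cox6a1 (chr5:115348959-115349208, minus strand) holds 2 NRF1 matches and 1 ETS match. Atp5h (chr11:115419920-115420169, minus strand) holds 1 of each. Atp5b (chr10:128083057-128083306, plus strand), among the most abundant transcripts of the group, holds no match to the 3 motifs.

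Most of the 84 genes were well measured, and a few tissue-specific isoforms were near the floor. In the mDA libraries 76 genes passed the filter on low counts and in the 5HT libraries 77. The 8 that failed in mDA were Ndufa4l2 and Ndufs5 of complex I and Cox4i2, Cox6a2, Cox7a1, Cox7b2, Cox8b and Cox8c of complex IV. Cox6a2, Cox7a1 and Cox8b are the heart and skeletal muscle isoforms, Cox4i2 is the lung isoform of subunit 4, and Cox7b2 and Cox8c are known from testis. Their counts summed over all 51 libraries ran from 42 for Cox8c to 330 for Cox7a1. Ndufa4l2, a hypoxia-induced paralogue of Ndufa4, had 229 counts. Ndufs5, an accessory subunit used by most cells, had only 30 counts in 17 libraries, and why it was near the floor was not tested. Cox7a1 passed the filter in 5HT.

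Per kilobase of median transcript length, complex IV subunits led the order in wt mDA neurons at 4 months. Cox4i1, the common isoform of subunit 4, was highest at 391 CPM per kb, and Cox8a followed at 363 CPM per kb. Cox6c was at 306, Ndufa4 at 295.3, Cox6b1 at 256 and Atp5b, the catalytic beta subunit of ATP synthase, at 247.9 CPM per kb. Sdhc, a membrane anchor of complex II, was at 16.8 CPM per kb. Ndufa4 carries a complex I name but is known as a subunit of complex IV. The isoforms not tested in mDA were at 3.23 CPM per kb (Cox7a1) or less. In wt 5HT neurons at 4 months the same genes led, with Cox4i1 at 541, Cox6c at 402, Cox8a at 388 and Ndufa4 at 364 CPM per kb. These values carry no test between genes.

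The complexes kept similar shares of the summed level. Over all 51 libraries complex I took 33.5% to 39.7% of the sum, complex II 3.60% to 6.59%, complex III 8.85% to 11.7%, complex IV 18.1% to 23.0% and complex V 25.9% to 31.0%. The sum itself varied more. At 4 months its median was 7690 CPM in mDA wt and 4497 CPM in mDA mutants, and at 8 months 5975 and 8209 CPM. In 5HT neurons the medians were 9623 CPM in wt and 8339 in mutants at 4 months, and 9792 and 8495 CPM at 8 months. In bulk RNA, fewer cells of a type and less RNA per cell cannot be told apart.

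**Figure D1:**
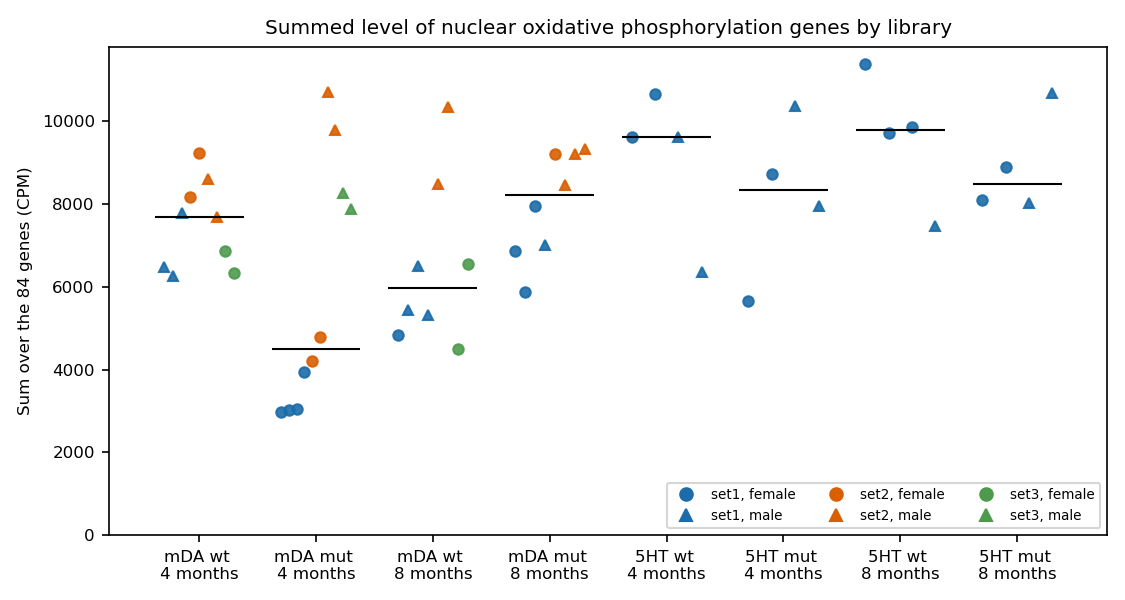
Summed CPM of the 84 genes (y axis) in each of the 51 libraries, by group (x axis). Points mark sex by shape and sequencing set by colour, and the line is the median of the group. The 6 female mutants at 4 months in mDA lie between 2976 and 4796 CPM, below all other libraries of that age and cell type, while the 4 male mutants lie between 7886 and 10707 CPM.

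In mDA neurons at 4 months the subunit genes were slightly lower in mutants when all 19 libraries were fitted with set and sex as terms, but few passed the test. The median of the 76 tested genes was -0.34 on the log2 scale, against -0.01 over all genes tested, and 72 of the 76 estimates were negative. edgeR called 3 genes lower and 0 higher, where 0.596% of all genes were called lower and 1.17% in either direction. Unadjusted, 44 had p under 0.05. The medians by complex were close to each other: -0.33 for I, -0.30 for II, -0.37 for III, -0.38 for IV and -0.34 for V.

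The 3 genes called were Ndufc2, an accessory subunit of complex I (chr7:97400003-97407800), Cox6c of complex IV (chr15:35931976-35938246) and Atp5g1, one of 3 genes for the c subunit of the ATP synthase ring (chr11:96072793-96075694). Ndufc2 fell by 0.81 (SE 0.17, edgeR adjusted p = 0.0104), Atp5g1 by 0.58 (SE 0.16, edgeR adjusted p = 0.046) and Cox6c by 0.50 (SE 0.13, edgeR adjusted p = 0.0407). Cox4i1 had the value -0.62 (SE 0.17) and missed the threshold (edgeR adjusted p = 0.0638). Of the core subunits of complex I, Ndufv1, which binds NADH, was at -0.12 (SE 0.11, edgeR adjusted p = 0.705) and Ndufs1 at -0.08 (SE 0.12, edgeR adjusted p = 0.811), both short of the threshold. Of the 76 genes, 0 had mutant and wt libraries that did not overlap (0% of all genes with mutants lower and 0.0778% with mutants higher). These calls were not stable to the design: with DESeq2 5 genes were called lower (0.847% of all genes), without the set1 mutants 0, and with the log2 of total counts as a term, added after the data were seen, 0.

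**Figure D2:**
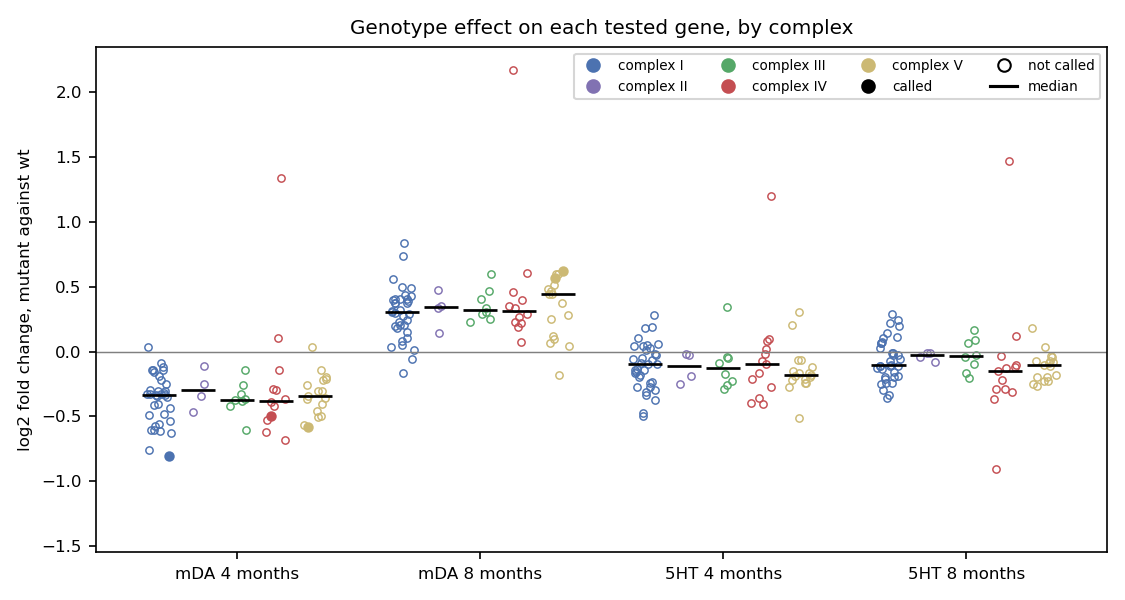
Log2 fold change of mutant against wt (y axis) for each tested gene in the 4 genotype comparisons (x axis), coloured by complex; filled points passed edgeR's test at adjusted p under 0.05 and lines are medians. Most points lie below 0 in mDA at 4 months (72 of 76) and above 0 in mDA at 8 months (73 of 76), and no point is filled in 5HT.

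By sequencing set, calls were made in set1 and not in set2 or set3. In set1 8 of 76 genes were called lower and 0 higher (0.305% of all genes were called lower, 0.428% in either direction), with a median of -0.70 and 74 negative estimates. In set2 edgeR called 0 (67 negative, median -0.23, 3 with unadjusted p under 0.05, 0.0908% of all genes called). In set3 edgeR called 0 (36 negative, median 0.01, 0 with unadjusted p under 0.05, 0.013% of all genes called). The difference between the set1 and set2 effects was not called for any member (0 of 76, 17 with unadjusted p under 0.05, median -0.51, 0% of all genes). Because genotype and sex coincide in set1, its effect rests on the sex term that the other sets supply. Without that term 56 genes were called lower in set1 (6.5% of all genes). Leaving out single libraries gave 2 (without wt male D296, 0.0326% of all genes called lower) to 21 (without mutant female D237, 1.56%).

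The 4 set1 genes with the smallest p came from complexes I and III. Ndufa1, an accessory subunit of complex I (chrX:37187588-37191238), fell by 2.09 (SE 0.37, edgeR adjusted p = 0.00388). Uqcrq of complex III (chr11:53427922-53430831) fell by 1.56 (SE 0.30, edgeR adjusted p = 0.0105). Ndufc2 fell by 1.60 (SE 0.33, edgeR adjusted p = 0.0141) and Ndufb8, an accessory subunit of complex I (chr19:44548571-44555442), by 1.53 (SE 0.32, edgeR adjusted p = 0.0195). The other 4 calls were Atp5c1, Cox5a, Cox4i1 and Ndufa3. In set2 the smallest p belonged to Atp5g1, at -0.54 (SE 0.23, edgeR adjusted p = 0.57), and to Ndufv2, at -0.51 (SE 0.22, edgeR adjusted p = 0.586), which missed the threshold. In set3 Ndufa5 was at -0.47 (SE 0.37) and Atp5s at -0.43 (SE 0.39), each with edgeR adjusted p = 1.

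Within one genotype, the sets differed in mutants. Set1 mutants, all female, had 49 of 76 genes called lower than set2 mutants, of both sexes (6.41% of all genes called lower, 8.91% in either direction), with all 76 estimates negative and a median of -0.90. Ndufa1 fell by 2.48 (SE 0.34, edgeR adjusted p = 4.32e-05) and Atp5c1, the gamma subunit of ATP synthase, by 1.65 (SE 0.23, edgeR adjusted p = 4.71e-05). Uqcrq fell by 1.45 (SE 0.27, edgeR adjusted p = 0.000599) and Cox6c by 1.07 (SE 0.20, edgeR adjusted p = 0.000935). Set1 wt, all male, had 0 genes called against set2 wt by edgeR (20 with unadjusted p under 0.05, median -0.40, 2.38% of all genes called). Atp5b at -0.82 (SE 0.25, edgeR adjusted p = 0.0639) and Atp5c1 at -0.73 (SE 0.23, edgeR adjusted p = 0.0768) had the smallest p there and missed the threshold.

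The mutant libraries with low values were the females of set1 and of set2. A fit of the genotype effect within each sex, with set terms, was therefore added after the data were seen. Set1 held no wt female and no mutant male, and set3 no mutant female and no wt male. Both effects therefore rest on set terms shared between the sexes. In females at 4 months 55 of 76 genes were called lower and 0 higher (7.61% of all genes were called lower, 12.4% in either direction), with a median of -1.02 against 0.01 over all genes. These 55 were 27 of 35 in complex I, 2 of 4 in complex II, 7 of 8 in complex III, 9 of 12 in complex IV and 10 of 17 in complex V. All 8 genes called in set1 were among them. In males edgeR called 0 (72 of 76 positive, median 0.27, 11 with unadjusted p under 0.05, 0.136% of all genes called). The female effect minus the male effect was called lower for 34 genes and higher for 0 (3.99% of all genes called lower, 7.31% in either direction; median -1.23).

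**Figure D3:**
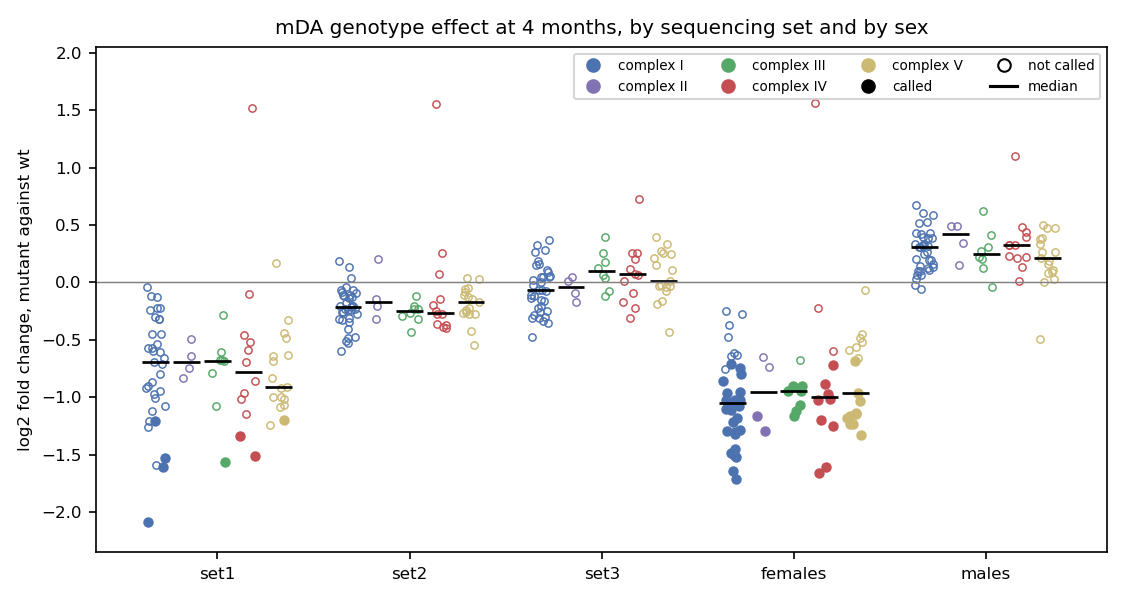
Log2 fold change of mutant against wt in 4-month mDA neurons (y axis) for each tested gene, in each sequencing set and within each sex (x axis), coloured by complex; filled points passed edgeR's test and lines are medians. Filled points number 8 in set1, 55 in females and 0 in set2, set3 and males, and the single complex IV point above the rest is Cox6b2.

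The same libraries give the picture without a model. For 52 of the 76 genes all 6 female mutants were below all 4 female wt libraries (8.91% of all genes), and for 0 all were above (3.62%). For 11 genes all 4 male mutants were above all 5 male wt libraries (1.88%), and for 0 all were below (1.48%). The mutant females came from set1 and set2 and the wt females from set2 and set3. The mutant males came from set2 and set3 and the wt males from set1 and set2. Set is thus mixed into both counts. Set2 alone has both sexes of both genotypes. There the 2 female mutants were below both female wt libraries for 69 of 76 genes (30.5% of all genes), with a median difference of -0.95 in log2(CPM + 1), and above for 1 (25.6%). The 2 male mutants of set2 were above both male wt libraries for 52 of 76 genes (19.6% of all genes), with a median difference of 0.31, and below for 0 (21.7%). Pairs of 2 against 2 carry no test.

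**Figure D4:**
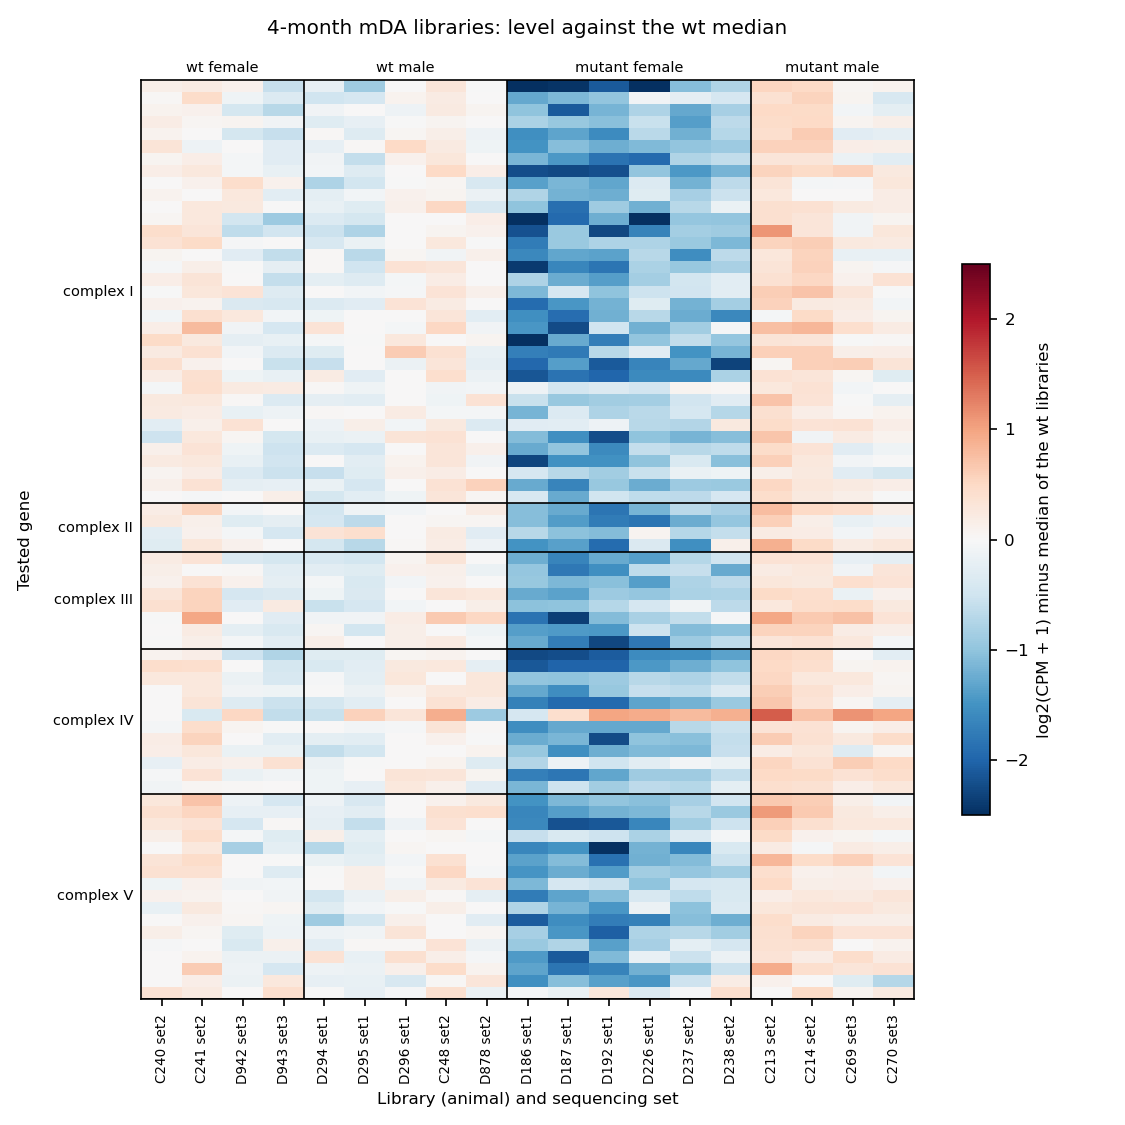
Level of each tested gene (rows, by complex) in the 19 mDA libraries of 4 months (columns, by genotype and sex, labelled with animal and set), as log2(CPM + 1) minus the median of the wt libraries. The 6 mutant female columns are below the wt median in most rows of every complex, the 4 mutant male columns are not, and the row of complex IV that stands apart is Cox6b2.

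The female and male effects given for each complex below come from the fit within sex. That fit was added because the mutant females were seen to be low, so its p-values are not independent of that choice. It also rests on set terms shared between the sexes. In complex I the largest female effects were in accessory subunits, and some core subunits did not pass. Ndufc2 was at 102, 119, 82.6 and 79.1 CPM in the wt females and at 19.6, 24.1, 21.8, 29.2, 29.2 and 51.2 CPM in the mutant females. It was at 103, 73.9, 89.6, 120 and 80.7 CPM in the wt males and at 115, 111, 92.6 and 72.2 CPM in the mutant males. All 6 mutant females were thus below the lowest of the other 13 libraries, and the males of both genotypes overlapped. Its female effect was -1.64 (SE 0.22, edgeR adjusted p = 3.16e-06) and its male effect 0.03.

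Ndufa1 was at 39.8 to 69.1 CPM in the 4 wt females and at 5.84, 10.04, 13.2, 7.29, 27.9 and 34.97 CPM in the mutant females, of which the last 2 are from set2. It was at 32.0 to 73.7 CPM in the 5 wt males and 61.8 to 86.9 CPM in the 4 mutant males. The mutant females did not overlap the wt females but overlapped the wt males, and the 4 of set1 were lowest. Its female effect was -1.48 (SE 0.29, edgeR adjusted p = 0.000464). Ndufb8 fell by 1.3 in females (SE 0.26, edgeR adjusted p = 0.000418), and Ndufa4, of complex IV by function, by 1.45 (SE 0.26, edgeR adjusted p = 0.000127). In wt females Ndufa4 had run from 150 to 207 CPM and in mutant females from 35.1 to 85.8 CPM, with no overlap.

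Among the core subunits, Ndufv1 was at 125, 136, 94.3 and 82.3 CPM in wt females and at 89.2, 73.8, 65.0, 81.1, 107.4 and 112 CPM in mutant females. These groups overlapped, and the female effect of -0.27 (SE 0.19) missed the threshold (edgeR adjusted p = 0.424). Ndufs1 at -0.37 (SE 0.21, edgeR adjusted p = 0.296) and the accessory subunit Ndufs4 at -0.25 (SE 0.27, edgeR adjusted p = 0.64) missed it too. Ndufs3, Ndufs7, Ndufs8 and Ndufv2, also core subunits, were called lower at -0.80, -0.86, -1.08 and -0.96; all but Ndufv2 were chosen after their values were seen. A test of core against accessory subunits was not run.

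In complex II, whose 4 subunits also serve the citrate cycle as succinate dehydrogenase, the catalytic subunits were called in females and the membrane anchors were not. Sdha, the flavoprotein (chr13:74322255-74350240), was at 188 to 288 CPM in wt females and at 93.0, 81.3, 54.5, 87.1, 122 and 110 CPM in mutant females. In males it was at 143 to 227 CPM in wt and 217 to 333 CPM in mutants. Mutant females were below all other libraries of that age, and mutant males overlapped wt males at 1 library, the one at 217 CPM. Sdha fell by 1.17 in females (SE 0.19, edgeR adjusted p = 3.13e-05), with a male value of 0.49 (SE 0.19, edgeR adjusted p = 0.328). Sdhb, the iron-sulfur subunit (chr4:140961271-140979198), was at 83.8 to 123 CPM in wt females and 28.3 to 52.4 CPM in mutant females, and fell by 1.29 (SE 0.25, edgeR adjusted p = 0.000351). Sdhc and Sdhd had values of -0.65 (SE 0.28) and -0.73 (SE 0.37), in the same direction, and missed the threshold. A test of catalytic subunits against membrane anchors was not run.

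In complex III all 8 genes but Uqcrc2 were called lower in females. Uqcrc1, a core protein (chr9:108936648-108949641), was at 130 to 258 CPM in wt females and at 72.5, 68.2, 93.1, 89.2, 101 and 102 CPM in mutant females, with no overlap. It was at 136 to 215 CPM in wt males and 155 to 244 CPM in mutant males, which overlapped. Its female effect was -1.07 (SE 0.19, edgeR adjusted p = 0.00012). Uqcrq fell by 1.12 (SE 0.25, edgeR adjusted p = 0.00215), and the Rieske iron-sulfur protein Uqcrfs1 (chr13:30540312-30545316) by 0.90 (SE 0.30, edgeR adjusted p = 0.0373). Uqcrc2 had a value of -0.68 (SE 0.24) and missed the threshold.

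In complex IV the tissue-specific isoforms, except Cox6b2, were not tested, so the female effects below are almost all of common subunits. Cox4i1 (chr8:120668225-120674209) was at 343, 362, 227 and 191.5 CPM in wt females and at 67.5, 69.2, 76.0, 109, 111 and 128 CPM in mutant females. It was at 264, 263, 335, 345 and 325 CPM in wt males and at 462, 445, 329 and 270 CPM in mutant males. The mutant females were the 6 lowest of the 19 libraries, without overlap, and the 2 highest were mutant males of set2. Cox4i1 fell by 1.60 in females (SE 0.19, edgeR adjusted p = 2.6e-07), and the difference from males was -1.99 (SE 0.32, edgeR adjusted p = 0.000192).

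Cox5a (chr9:57517328-57532427), for subunit 5A, was at 84.3 to 156 CPM in wt females and 25.8 to 56.8 CPM in mutant females, and fell by 1.66 (SE 0.25, edgeR adjusted p = 1.41e-05). Cox6c was at 140 to 195 CPM in wt females and 48.4 to 99.9 CPM in mutant females, and fell by 0.97 (SE 0.20, edgeR adjusted p = 0.000603). Of the non-muscle isoforms with a muscle counterpart, Cox7a2 fell by 1.20 (SE 0.26, edgeR adjusted p = 0.00107) and Cox6a1 by 0.72 (SE 0.23, edgeR adjusted p = 0.0332). Cox8a, at -0.59 (SE 0.21, edgeR adjusted p = 0.0559), missed the threshold, as did Cox7b and Cox6b2.

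In complex V the genes called in females include parts of the catalytic head, the stalks and the c ring. Atp5b (chr10:128083307-128090388) was at 575, 632, 377 and 376 CPM in wt females and at 140, 166, 189, 198, 268.7 and 226.03 CPM in mutant females. It was at 376, 359, 432, 571 and 577 CPM in wt males and at 903, 679, 512 and 477 CPM in mutant males. The mutant females did not overlap any other library, and the mutant males overlapped the wt males. Atp5b fell by 1.23 in females (SE 0.19, edgeR adjusted p = 1.37e-05), and the difference from males was -1.73 (SE 0.31, edgeR adjusted p = 0.000586).

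Atp5a1, the alpha subunit, fell by 1.14 (SE 0.18, edgeR adjusted p = 1.8e-05), and Atp5c1 (chr2:10056030-10080510), at 95.2 to 163 CPM in wt females and 27.6 to 89.3 CPM in mutant females, by 1.14 (SE 0.20, edgeR adjusted p = 0.000117). The wt males, at 84.5 to 162 CPM for Atp5c1, overlapped its mutant females. Of the 3 genes for the c subunit, Atp5g1 fell by 1.23 (SE 0.23, edgeR adjusted p = 0.000234) and Atp5g3 by 0.68 (SE 0.23, edgeR adjusted p = 0.0378), while Atp5g2 missed the threshold. Atp5sl, which carries the name but is known as a complex I assembly factor (Dmac2), was at -0.07 (SE 0.26, edgeR adjusted p = 0.922).

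Depth moved with these values. The 6 mutant females had the 6 lowest totals of the 19 libraries, 1654667 to 3017630 counts against 3500770 or more in the rest. Their 100 most abundant genes took 34.5% to 44.1% of counts, against 29.6% to 36.8% in wt and 29.2% to 30.4% in mutant males. With the log2 of total counts as a term 21 of 76 genes were called lower in females (1.46% of all genes), with a median of -0.79. In females minus males it left 9 called lower (0.934% of all genes), with a median of -1.05. Without the set1 mutants 46 of 77 genes were called lower in females (6.65% of all genes), with a median of -0.86. The part of depth or RNA quality in the result was not tested beyond these fits.

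**Figure D5:**
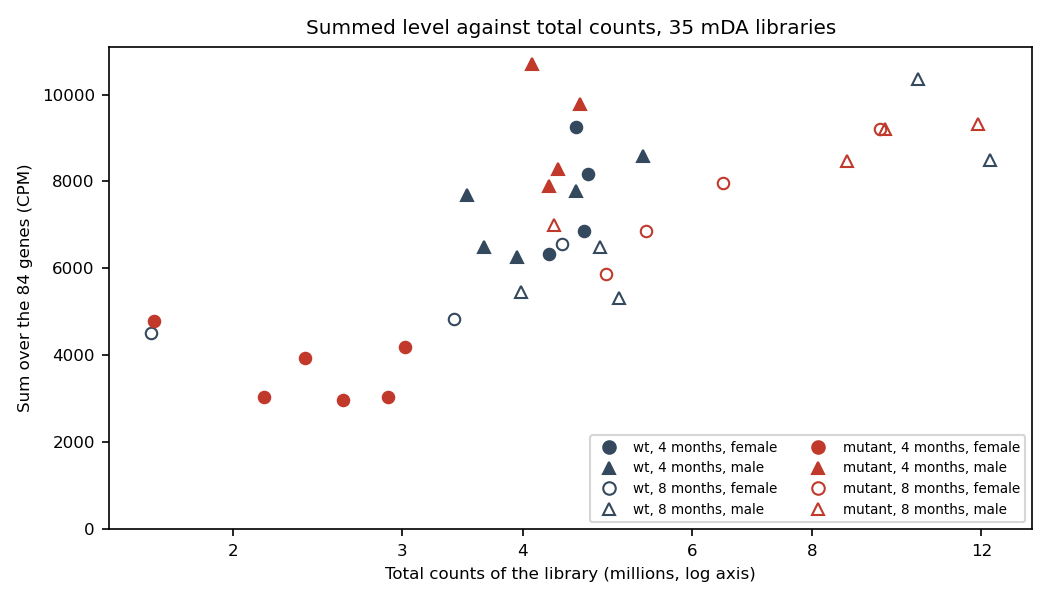
Summed CPM of the 84 genes (y axis) against the total counts of each of the 35 mDA libraries (x axis, in units of 1000000, log scale), by genotype (colour), age (filled or open) and sex (shape). The 6 female mutants of 4 months lie at the lower left, at 1654667 to 3017630 counts and 2976 to 4796 CPM, and a wt library of 8 months with 1644460 counts lies at 4506 CPM.

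Beside these values in females, 5 glial marker genes were called lower and 0 higher, where 7.61% of all genes were called lower. Summed oligodendrocyte markers ran from 521 to 958 CPM in mutant females and from 436 to 1218 CPM in wt females, and 3 of 10 were called lower, Cnp among them. Summed astrocyte markers ran from 250 to 355 CPM against 425.7 to 484 CPM. Of these markers 1 of 9 was called lower (Aldoc, which is also on the glycolysis list below). Summed microglia markers ran from 28.4 to 40.1 against 43.8 to 69.6 CPM, with 1 of 7 called lower. Summed endothelial and mural markers ran from 13.3 to 53.4 against 8.48 to 23.4 CPM, with 0 of 7 called. Summed dopaminergic markers ran from 4017 to 7421 CPM in mutant females and from 7803 to 8825 CPM in wt females, with 0 of 6 genes called and a median of -0.20. Of 6 pan-neuronal genes Nefl and Syt1 were called lower and Rbfox3 higher. In these females 0 astrocyte markers were at 0, and per library up to 1 oligodendrocyte marker, 3 microglia markers and 1 endothelial or mural marker were at 0. The part of glial or vascular cells in the result was not tested.

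At 8 months the direction in mDA neurons was the other way, with slightly higher values in mutants. The median of the 76 genes was 0.33, against 0.02 over all genes tested, and 73 estimates were positive. edgeR called 2 higher and 0 lower (2.44% of all genes were called higher, 4.32% in either direction), and 23 had unadjusted p under 0.05. Medians were 0.31 for complex I, 0.34 for II, 0.32 for III, 0.31 for IV and 0.45 for V.

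The genes called were Atp5b and Atp5a1, the beta and alpha subunits of ATP synthase, and their share of the members was close to that of all genes. Atp5b ran from 225 to 668 CPM with a median of 310 in wt and from 385.5 to 721 CPM with a median of 549 in mutants. Atp5a1 ran from 144 to 434 CPM with a median of 196 in wt and from 232 to 454 CPM with a median of 347 in mutants. For both genes the groups overlapped. Atp5b rose by 0.62 (SE 0.18, edgeR adjusted p = 0.0391) and Atp5a1 by 0.57 (SE 0.17, edgeR adjusted p = 0.0383). Cox4i1, at 144 to 426.1 CPM in wt (median 181) and 197 to 405 CPM in mutants (median 350), had a value of 0.61 (SE 0.22) and missed the threshold (edgeR adjusted p = 0.105).

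The sets differed in level at 8 months as well. In set2 the 2 wt libraries had sums of 8496 and 10350 CPM and the 4 mutants 8459, 9213, 9211 and 9329 CPM. In set1 the 4 wt libraries had 4843, 5450, 6499 and 5329 CPM and the 4 mutants 6863, 5874, 7959 and 7002 CPM. Set3 held 2 wt females, at 6552 and 4506 CPM, and no mutant. Set2 was high in both genotypes, and in set1 3 of the 4 mutants were above all 4 wt libraries. The set1 wt libraries were male except C45 and the set1 mutants female except C42, so genotype and sex were largely tied there. The set2 libraries were male except the mutant D175. Within sex, edgeR called 0 in females (median 0.45, 17 with unadjusted p under 0.05, 0.395% of all genes called), 0 in males (median 0.05, 7 with unadjusted p under 0.05, 2.49% of all genes) and 0 in their difference (14 with unadjusted p under 0.05, 0% of all genes). For 18 genes all 4 female mutants were above all 3 female wt libraries (8.35% of all genes). For 2 genes all 4 male mutants were above all 5 male wt libraries (2.99%). Mutants were below for 0 genes (5.52% in females and 2.17% in males). The mutant females came from set1 and set2 and the wt females from set1 and set3. The males of both genotypes came from set1 and set2, but the wt males were mostly of set1 and the mutant males mostly of set2. Set is thus mixed into both counts.

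Markers of vessels were high in 3 mutant libraries of this age. The male mutants D161, D170 and D176 of set2 had summed endothelial and mural markers of 462, 206 and 452 CPM, with none of the markers at 0, against 4.35 to 22.1 CPM in the other 13 libraries. Their summed astrocyte markers were 840, 853 and 1394 CPM against 320 to 573 CPM. Without these 3 libraries, left out after their values were seen, 15 of the 76 genes were called higher (3.13% of all genes). The part of these cells in the result was not tested further. Dopaminergic markers were called lower at 8 months for 5 of 6 genes (median -1.31) in the fit with all libraries. In that fit 4.32% of all genes were called in either direction. Slc18a2 was at -1.49, Slc6a3 at -1.40 and Th at -1.22. With the log2 of total counts as a term 0 subunit genes were called.

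The change of the genotype effect between ages was called for more genes than either effect alone. At 8 minus 4 months 29 of 76 genes were called higher and 0 lower (3.76% of all genes called higher, 6.11% in either direction), with a median of 0.72. These were 9 genes of complex I, 1 of II, 4 of III, 6 of IV and 9 of V, and 28 of the 29 were also called lower in females at 4 months; both comparisons share the 4-month libraries. The smallest p belonged to Cox4i1 at 1.22 (SE 0.28, edgeR adjusted p = 0.00656), Atp5a1 at 0.91 (SE 0.21, edgeR adjusted p = 0.00803) and Atp5c1 at 0.98 (SE 0.23, edgeR adjusted p = 0.00841). Without the 4 set1 mutants of 4 months 0 were called, and with the log2 of total counts as a term 0; both alternatives were added after the data were seen.

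In 5HT neurons no subunit gene was called at either age. At 4 months edgeR called 0 of 77 (60 negative, median -0.15, 1 with unadjusted p under 0.05, 0.0128% of all genes called), and DESeq2 called 0. At 8 months edgeR called 0 of 77 (59 negative, median -0.10, 0 with unadjusted p under 0.05, 0.397% of all genes called), and DESeq2 called 0. At 4 months Cox4i1 was at 441, 242, 455 and 497 CPM in wt and at 539, 384.9, 240 and 428 CPM in mutants. At 8 months it was at 607, 497, 502 and 360 CPM in wt and at 382.6, 515, 406 and 422 CPM in mutants. The genotypes overlapped at both ages, and the single lowest wt and mutant libraries at 4 months, S369 and S427, also had the lowest totals of their groups (3211468 and 2795515 counts).

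Ndufb3, an accessory subunit of complex I, had the smallest p at both ages. It was at 109, 70.1, 81.4 and 116 CPM in wt and 77.3, 65.9, 67.3 and 53.0 CPM in mutants at 4 months. The value was -0.50 (SE 0.23, edgeR adjusted p = 0.745) at 4 months and -0.36 (SE 0.24, edgeR adjusted p = 1) at 8 months. Next were Atp5sl at 4 months, at -0.51 (SE 0.32, edgeR adjusted p = 0.876), and Ndufv2 at 8 months, at -0.30 (SE 0.23, edgeR adjusted p = 1). These values missed the threshold, and with 4 libraries a group this does not show that the genotypes were alike. For 0 of 77 genes did the 5HT genotypes not overlap, at 4 months (1.3% of all genes with mutants lower, 1.45% higher) or at 8 months (2.74% and 3.72%). The mDA effect minus the 5HT effect at 8 months had a median of 0.46, and edgeR called 0 of 79 genes (15 with unadjusted p under 0.05, 0.179% of all genes called).

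Between wt neurons, subunit genes were lower in mDA than in 5HT neurons. Over both ages 38 of 77 genes were called lower in mDA and 0 higher (10.4% of all genes called lower, 21.7% in either direction), with a median of -0.44 against 0.03 over all genes. The calls were 20 of 35 in complex I, 1 of 4 in II, 4 of 8 in III, 8 of 13 in IV and 5 of 17 in V. Cox7a2l, a factor in the assembly of supercomplexes (chr17:83501917-83514333), fell by 0.75 (SE 0.13, edgeR adjusted p = 3.03e-05), Atp5j2, the f subunit of ATP synthase, by 0.77 (SE 0.14, edgeR adjusted p = 7.23e-05) and Ndufa8, an accessory subunit of complex I (chr2:36036324-36049338), by 0.90 (SE 0.17, edgeR adjusted p = 0.000171). Cell type and strain cannot be told apart here, and the sequencing sets are not known to be shared between the strains. Between 8 and 4 months in wt mDA neurons edgeR called 0 of 75 (median -0.13, 6 with unadjusted p under 0.05, 0% of all genes).

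Neighbouring pathways were described with lists chosen with earlier results known. In mDA females at 4 months all 7 nuclear genes of the system outside the name pattern were called lower (median -0.97), among them cytochrome c (Cycs, -1.31, SE 0.26, edgeR adjusted p = 0.000497) and the ATP synthase inhibitor Atpif1 (-0.97). Of 15 assembly factors of complex I 3 were called lower (median -0.18), which were Tmem126b, Ndufaf3 and Tmem126a. Of 31 assembly factors of complexes II to V 4 were called lower (median -0.40), which were Coa3, Uqcc1, Cox14 and Surf1. Coenzyme Q synthesis had 0 of 11 called (median -0.22). In this fit 7.61% of all genes were called lower. No difference between these lists was tested.

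Of 17 citrate cycle genes 5 were called lower in females (median -0.33), led by malate dehydrogenase Mdh2 (-1.16, SE 0.25, edgeR adjusted p = 0.000937). Of 17 glycolysis genes 11 were called lower (median -0.78), including phosphoglycerate mutase Pgam1 (-1.27, SE 0.18, edgeR adjusted p = 7.32e-06), Tpi1 (-1.34) and Pkm (-1.04). Of 77 cytosolic ribosomal protein genes 40 were called lower (median -0.77), and of 77 mitochondrial ribosomal protein genes 8 (median -0.58). Over all genes 7.61% were called lower in this fit. Regulators of mitochondrial biogenesis had 0 of 17 called, 15 of 17 positive and a median of 0.27. Ribosomal and glycolytic genes were thus called lower in the same libraries as the subunit genes.

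In the fit of both sexes at 4 months these lists had few calls. The genes outside the name pattern had 0 of 7 called (median -0.38), complex I assembly 0 of 15 (-0.08), complex II to V assembly 0 of 31 (-0.08), the citrate cycle 0 of 17 (-0.09), glycolysis 0 of 17 (-0.18) and mitochondrial ribosomal proteins 0 of 77 (-0.20). Coq9 of coenzyme Q synthesis, Ssbp1 of mitochondrial DNA maintenance and Rps3 of the cytosolic ribosome were called lower. Over all genes 0.596% were called lower in this fit. At 8 months the genes outside the name pattern again had 0 of 7 called (median 0.29). Glycolysis had Ldha (0.79) and Aldoa (0.56) called higher and Pfkp (-0.43) lower, where 4.32% of all genes were called in either direction.

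Cox6b2 was chosen after its values were seen. This gene, the testis isoform of subunit 6b (chr7:4751792-4753094), had the highest log2 fold change of all tested members in each of the 4 genotype comparisons. In mDA at 8 months it ran from 0.229 to 1.69 CPM in wt (median 1.12) and from 2.16 to 8.12 CPM in mutants (median 2.86). The groups did not overlap, and it was the only one of 76 genes at that age for which they did not (0.888% of all genes with mutants higher, 0.408% with mutants lower). At 4 months it ran from 0 to 2.52 CPM in wt and from 0.417 to 4.39 CPM in mutants, which overlapped. The values were 1.34 (SE 0.58, edgeR adjusted p = 0.263) and 2.17 (SE 0.70, edgeR adjusted p = 0.0659) in mDA at 4 and 8 months and 1.20 (SE 1.44, edgeR adjusted p = 0.966) and 1.47 (SE 1.32, edgeR adjusted p = 1) in 5HT. None was called, and levels this close to the floor of 3 counts are imprecise.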

How the data were processed

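RNA was measured with Smart-seq2 in sorted neurons. The authors deposited raw counts of reads per gene in 1 table with 51 libraries, of which 0 columns went unused. The aligner was STAR 2.7.0a and the build mm10 (GRCm38), per the submitters' processing notes. How reads were counted, and whether strand was used, is not given in the sources used here. The reporter row (at most 0.00294% of counts) stayed out of tests. Between replicates, 0 pairs of columns were identical and the lowest chi-square per degree of freedom was 6.97. Reads carry no molecular tags, so floors cover counting error only.

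Groups, sets, sex and age came per the labels, and each library had its own animal number. The main test was the robust quasi-likelihood test of edgeR 4.0.16 (with limma 3.58.1, in R 4.3.3), with TMM scaling, filterByExpr at 10 counts and Benjamini-Hochberg adjustment over all genes tested. The 35 mDA libraries were fitted together with group, set within age and sex, and the 16 5HT libraries with group and sex. For wt cell types the 25 wt libraries were fitted with a sex term, and for the difference of effects between cell types all 51. Set effects came from means of genotype, age and set, with sex. SE is the absolute log2 fold change over the square root of F. The genotype comparisons of mDA and of 5HT at each age were tested on simulated data. Those by set, within sex, between ages and between cell types were not. DESeq2 1.42.0, other scalings and filters, and left-out libraries were alternatives.

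Members, lists and tests were chosen with earlier results of these data known. Named genes were fixed representatives of each complex, paired isoforms, up to 4 called genes with the smallest p per direction in genotype and set comparisons (the 2 smallest where none was called), and 3 in other comparisons. Further members named for missing the threshold, and the promoters shown, were chosen after their values were seen. A few genes are not reported here by name.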

Additional observations from a re-analysis of the deposited data

Results flagged for a closer look

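Of 325 groups of libraries checked, 21 held 1 library far from the others, and the values are CPM with the range of the other libraries of the group. The test behind this picks out some groups by chance alone. In mDA wt at 8 months D147 was high for Uqcrfs1 at 129 (52.9 to 85.8), Atp5g3 at 160 (85.0 to 116), Atp5g1 at 179 (58.0 to 111), Ndufa1 at 74.3 (37.2 to 46.0) and Uqcrq at 134 (58.4 to 93.9), and C250, the library with the fewest counts, was low for Ndufb3 at 28.2 (50.2 to 68.0). In mDA mutants at 8 months D161 was high for Cox4i2 at 8.71 (0 to 3.87), and D176 for Cox6a2 at 7.03 (0 to 3.19), Cox7a1 at 3.95 (0 to 1.01) and Atp5sl at 74.3 (43.7 to 56.0). Both are among the libraries with high endothelial and mural markers. D175 was high for Ndufc2 at 109 (63.5 to 83.95).

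In mDA at 4 months the wt library C241 was high for Cox7a2 at 141 (79.3 to 108), the wt library D296 for Ndufa4l2 at 2.01 (0 to 0.288) and the mutant D226 for Cox4i2 at 1.29 (0 to 0.624). In 5HT wt at 4 months S369 was low for the complex III sum at 748 (1022 to 1061), Sdhb at 41.2 (132 to 146.8) and Atp5c1 at 81.2 (180 to 183). In 5HT wt at 8 months S385 was low for Ndufa1 at 55.5 (75.3 to 77.1). In 5HT mutants S443 was high at 8 months for Atp5b at 731 (543 to 565) and Atp5a1 at 416 (295.4 to 311), and S426 at 4 months for Cox4i2 at 0.742 (0 in the others).

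The genotype effect differed between groups of libraries by edgeR's test of the difference itself in 2 comparisons. It was called for 29 subunit genes at 8 minus 4 months and for 34 in females minus males at 4 months, each with Benjamini-Hochberg adjusted p under 0.05. Of all genes 3.76% were called higher in the first comparison and 3.99% lower in the second. Neither count was stable: both fell with the log2 of total counts as a term, and the first also fell without the set1 mutants.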

How the results depend on the processing

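Of the alternatives compared, 177 gave a count of called subunit genes within 1.5 times the reported one and 49 did not; the cause was not tested. These counts show how calls moved, and those with no share of all genes given above are no result about the members. In mDA at 4 months (3 called) RLE size factors gave 1, no filter 1, no set term 0, no sex term 1, no set1 libraries 0, no set1 mutants 0 and set2 alone 0. Set1 alone gave 48, without a sex term and with genotype and sex coinciding. A term for log2 total counts gave 0, DESeq2 5, females 55 and males 0. At 8 months (2 called) library totals gave 4, no set term 1, no sex term 0, total counts as a term 0, no D161, D170 and D176 15, DESeq2 4, females 0 and males 0. The age difference (29) gave 19 with RLE, 5 with no set term, and 0 with no set1 mutants, with no set1 libraries and with total counts as a term. The set1 effect (8) gave 5 with RLE, 13 with library totals and 56 with no sex term; leaving out 1 library gave 2 (D296) to 21 (D237), and beyond 1.5 times also without D294 (3), D186 (3), D187 and D192 (4), C240, C241, C248, D878 and C269 (5), D226 and D238 (13) and C213 (16). Set1 minus set2 (0) gave 2 with no sex term. In females (55) a term for total counts gave 21, and in females minus males (34) 9. Leaving out 1 library gave 43 to 59 in females and 17 (D878) to 35 in females minus males, with 18 without D237 and 21 without C241 or C213. In 5HT 0 alternatives called a member, in 32 of which 1 library was left out. Library totals moved the median of all genes to -0.13 for set1 and -0.19 for set1 minus set2. The terms for total counts and the fits within sex were added after the data were seen. No paired analysis was possible because animal numbers are unique and the groups share none. Depth limits the isoforms near the floor of 3 counts.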
